A study of Homo sapiens with 2 samples.

Results

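The genes described here are the components of the bone morphogenetic protein (BMP), activin and transforming growth factor beta (TGF-beta) pathways in liver progenitors made from CyT49 human embryonic stem cells. They were chosen by name, as 55 ligands, receptors, SMAD proteins, antagonists and ID genes, and 54 of the 55 had a value among the 57158 genes of the deposited table. GDF10 was not matched to an identifier and has no value here. Poly(A) RNA was sequenced strand-specifically from cells that had reached definitive endoderm, the layer that gives rise to gut and liver, at day 2. They were then kept for 6 days in suspension in RPMI medium with 50 ng/ml BMP4, 10 ng/ml FGF2 and 0.2% FBS. The only group was this day 8 culture of 1 cell line, sequenced as 2 libraries that carry replicate numbers, without an untreated culture or another day. Levels are therefore described within the group, and no response to BMP4 could be measured.

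Ligands of this family bind a pair of type II and a pair of type I receptors at the cell surface, both of which are serine/threonine kinases. The type I receptor then phosphorylates a receptor-regulated SMAD, mostly SMAD1, SMAD5 and SMAD9 (BMP arm) or SMAD2 and SMAD3 (activin, nodal and TGF-beta arm), which enters the nucleus with the common partner SMAD4. Secreted antagonists, a decoy receptor and the inhibitory SMADs limit the signal, and the ID genes are classical BMP targets. In the embryo, BMP from the septum transversum mesenchyme acts with FGF on the foregut endoderm to induce the liver.

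Levels are RPKM (reads scaled to gene length and sequencing depth), so genes can be set side by side on this scale. The table lists every value under 0.5 RPKM as 0.1, and such a gene is given below as under 0.5 RPKM. Detected means that both libraries reached 1 RPKM. From the spacing of values among genes with a single exon, the depth was 25183042 reads for library 1 and 25264741 for library 2. A level of 1 RPKM is then about 50.4 and 50.5 reads for a length of 2000 bp. The spread was taken from 807 single-exon genes averaging at least 50 reads, with values within 0.02 of a whole read in both libraries. Among these genes the libraries varied 1.09 times as much as counting alone predicts, and genes outside that filter were not covered. The libraries were therefore counted as 1 sample, and the difference between them is given as technical error. Both values are printed for the members that matter most, and any single value is the mean of the libraries. In bulk RNA, fewer cells that express a gene and less RNA per cell cannot be told apart.

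All 12 liver markers listed were detected, from ALB (albumin) at 6.68 RPKM to APOA1 (an apolipoprotein) at 2188 RPKM, and all 6 pluripotency markers were under 0.5 RPKM. Of all protein-coding genes, 59.8% were detected. Of 12 mesenchymal and stellate markers 5 were detected, with a sum of 38.1 RPKM in library 1 and 37.9 in library 2. PDGFRA was the highest of them at 18.2 RPKM, followed by COL1A1 at 8.29, COL1A2 at 5.13, LUM at 3.27 and PDGFRB at 2.14. COL3A1, DCN, TWIST1, TWIST2, DES and LHX2 were under 0.5. Endothelial markers were detected in 2 of 7 cases, with CDH5, TEK, TIE1, VWF and EMCN under 0.5 RPKM and PECAM1 not matched. Blood and macrophage markers were detected in 2 of 8 cases, and trophoblast and amnion markers in 4 of 10. Of the latter, the hormone subunit CGA stood at 136 RPKM, GATA3 at 10.3, CDX2 at 2.12 and ISL1 at 1.08. ELF5, TFAP2A, TFAP2C, KRT7, HAND1 and VTCN1 were under 0.5. The part that such cells have in the levels below was not tested.

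Of the 54 members, 35 (64.8%) were detected, beside 59.8% of 19342 protein-coding genes. Members at 10 RPKM or more in both libraries numbered 16 (29.6%), beside 20.2% of protein-coding genes, and 16 (29.6%) were under 0.5 RPKM in both, beside 33.8%. As a list the members thus lay near the background in detection, and the median level was 2.17 on the log2(RPKM + 1) scale, beside 1.77 for all protein-coding genes. The spread within the list was wide. The 4 ID genes held 66.1% of the summed RPKM of all members, and the 5 highest members were those 4 and BAMBI. Under 0.5 RPKM stood 10 of 23 ligands, 4 of 13 receptors, 2 of 6 antagonists and none of the 8 SMADs or 4 ID genes.

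**Figure D1:**
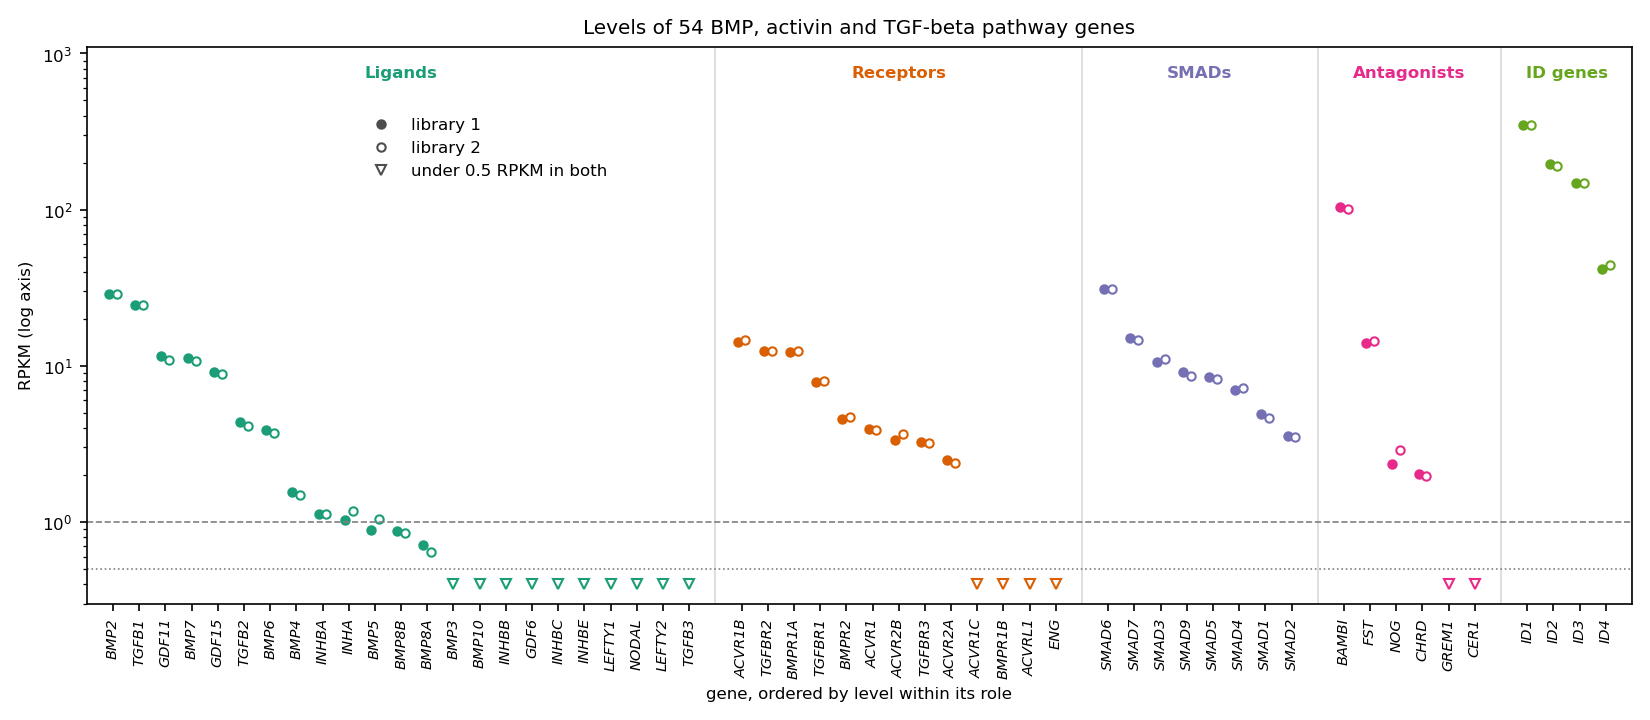
RPKM (vertical log axis) of each of the 54 members in library 1 (filled circles) and library 2 (open circles), grouped by role and ordered by level, with open triangles for genes under 0.5 RPKM in both, the dotted line at 0.5 RPKM and the dashed line at 1 RPKM. BAMBI is drawn with the antagonists. In both libraries the ID genes and BAMBI stand at 41.4 RPKM or more, and every other member at 30.9 RPKM or less.

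The stretches of 250 bases before the canonical transcript start of 4 of the 6 highest members are printed here. These members are known BMP targets or feedback inhibitors, as are the other 2, ID2 and ID4, and their upstream sequence can be read beside their levels. The stretches come from the GRCh37 (hg19) reference, 5′ to 3′ on the strand of the gene, up to the base before the start of the canonical GENCODE transcript. The windows are chr20:30192842-30193091 (plus strand) for ID1, chr1:23885993-23886242 (minus strand) for ID3, chr10:28966200-28966449 (plus strand) for BAMBI and chr15:66994324-66994573 (plus strand) for SMAD6. For ID1 and BAMBI the canonical start lies past the first base of the annotated gene (30193086 and 28966439). Their windows thus end a few bases inside the annotated gene. Capitals mark the 4-base SMAD box GTCT, read as AGAC on the opposite strand, and the GC-rich box GGCGCC, both of which are known contacts of SMAD proteins.
ID1: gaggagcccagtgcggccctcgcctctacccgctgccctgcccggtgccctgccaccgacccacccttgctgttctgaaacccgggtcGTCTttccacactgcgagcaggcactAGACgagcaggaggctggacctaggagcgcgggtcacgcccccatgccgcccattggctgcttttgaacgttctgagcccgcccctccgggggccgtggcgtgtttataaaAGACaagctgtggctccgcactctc
ID3: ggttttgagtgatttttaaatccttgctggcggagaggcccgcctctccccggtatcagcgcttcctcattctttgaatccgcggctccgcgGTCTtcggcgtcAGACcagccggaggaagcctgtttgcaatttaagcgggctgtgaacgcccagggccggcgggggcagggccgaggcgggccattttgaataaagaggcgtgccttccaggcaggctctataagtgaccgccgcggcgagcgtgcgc
BAMBI: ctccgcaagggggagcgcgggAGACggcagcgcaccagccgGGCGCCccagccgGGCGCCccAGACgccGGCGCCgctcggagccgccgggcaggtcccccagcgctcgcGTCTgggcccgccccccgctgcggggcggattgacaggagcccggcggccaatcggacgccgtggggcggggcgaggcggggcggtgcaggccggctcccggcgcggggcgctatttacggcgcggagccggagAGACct
SMAD6: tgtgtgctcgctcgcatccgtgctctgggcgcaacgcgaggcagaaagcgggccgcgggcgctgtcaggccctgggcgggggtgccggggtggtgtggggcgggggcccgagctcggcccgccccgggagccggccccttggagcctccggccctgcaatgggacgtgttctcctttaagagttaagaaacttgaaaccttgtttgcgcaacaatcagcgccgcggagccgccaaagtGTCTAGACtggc
The ID1 window held 3 SMAD boxes and the ID3 window 2, and neither held GGCGCC. The windows of ID2 and ID4, not printed, held 2 and 1 SMAD boxes and no GGCGCC. The BAMBI window held 4 SMAD boxes and 3 copies of GGCGCC, with 81.2% G and C. In the SMAD6 window a pair of SMAD boxes joined into the palindrome GTCTAGAC, which began 12 bases before the start. Windows of the same length before 19855 protein-coding genes held GTCTAGAC in 0.171% of cases (34 windows), and SMAD6 was the only member among them. GGCGCC was in 22.2% of all windows and in 11 of 54 member windows (20.4%), and GTCT or AGAC was in 75.3% of all windows and in 40 of 54 (74.1%). GTCTAGAC and GGCGCC read the same on both strands, and GTCTAGAC contains both forms of the SMAD box. These matches describe the letters of the windows and were not tied to binding or to level.

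The ID genes, helix-loop-helix proteins without a DNA-binding domain that block differentiation factors, were the highest role. ID1 (ENSG00000125968.7, chromosome 20, 30193086 to 30194318, GRCh37) stood at 346 RPKM in library 1 and 348 in library 2, above 99.6% of protein-coding genes. ID2 stood at 195 and 190 RPKM, and ID3 at 149 and 147. ID4 was the lowest of the ID genes at 41.4 and 44.3 RPKM. The order ID1, ID2, ID3 and ID4 was the same in both libraries with no overlap of values. The RPKM of ID1 was 1.80 times that of ID2 and 2.35 times that of ID3, and ID3 was 3.45 times ID4. A processed pseudogene of ID2, ID2B, was listed at 6.92 RPKM and can share reads with ID2.

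BAMBI, a membrane protein that resembles a type I receptor but lacks the kinase domain, was the highest antagonist. Its level was 103 RPKM in library 1 and 101 in library 2 (ENSG00000095739.7, chromosome 10, 28966439 to 28971861, GRCh37). That was 8.27 times the RPKM of BMPR1A, the BMP type I receptor, whose level is uncertain because its pseudogenes can share reads. Of the 5 secreted antagonists 3 (60.0%) were detected, beside 59.8% of protein-coding genes. FST (follistatin), which mainly binds activins, stood at 13.9 and 14.4 RPKM. NOG (noggin), which binds BMPs, stood at 2.33 and 2.89 RPKM, and CHRD (chordin), which also binds BMPs, at 2.03 and 1.97. GREM1 (gremlin), a BMP antagonist, and CER1 (cerberus), which binds nodal and BMPs, were under 0.5 RPKM in both libraries. FST was thus the only secreted antagonist listed here above 3 RPKM.

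All 8 SMADs were detected, beside 59.8% of protein-coding genes, and the inhibitory members were the highest. SMAD6, which acts mainly on the BMP arm, stood at 30.8 RPKM in library 1 and 30.9 in library 2 (ENSG00000137834.10, chromosome 15, 66994574 to 67075187, GRCh37). SMAD7, which inhibits both arms, stood at 15.0 and 14.7 RPKM, and SMAD6 was 2.09 times SMAD7. Among the receptor-regulated SMADs, SMAD3 of the activin and TGF-beta arm stood at 10.6 and 11.1 RPKM and SMAD2 of the same arm at 3.56 and 3.49. In the BMP arm SMAD9 stood at 9.09 and 8.61 RPKM, SMAD5 at 8.45 and 8.22, and SMAD1 at 4.94 and 4.63. SMAD5 and SMAD9 lay close together (ratio 0.94), while SMAD1 was at 0.57 of SMAD5 and SMAD2 at 0.33 of SMAD3. Summed RPKM was 22.5 in library 1 and 21.5 in library 2 for SMAD1, SMAD5 and SMAD9, and 14.1 and 14.6 for SMAD2 and SMAD3. SMAD4, the partner of both arms, stood at 7.01 and 7.22 RPKM. The inhibitory pair summed to 45.7 RPKM, above either arm.

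Receptors were detected in 9 of 13 cases (69.2%), beside 59.8% of protein-coding genes. The detected type I and type II receptors included genes of both arms. Among the type I receptors, ACVR1B, the activin and nodal receptor, was the highest at 14.2 RPKM in library 1 and 14.7 in library 2. BMPR1A, the BMP type I receptor, stood at 12.3 and 12.4 RPKM (ENSG00000107779.6, chromosome 10, 88516353 to 88692582, GRCh37). Its processed pseudogenes BMPR1AP1 and BMPR1AP2 were listed at 6.75 and 10.9 RPKM and can share its reads, so its level is uncertain. TGFBR1 stood at 7.85 and 7.97 RPKM and ACVR1, a further BMP type I receptor, at 3.91 and 3.90. The other BMP receptor BMPR1B, the nodal receptor ACVR1C and the endothelial receptor ACVRL1 were under 0.5 RPKM in both libraries. Each subfamily of type I receptors thus had members on either side of the limit.

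All 4 type II receptors among the members were detected, beside 59.8% of protein-coding genes. AMHR2, the receptor of the hormone AMH, is not a member and is given with the further lists. TGFBR2, which binds TGF-beta, stood at 12.5 and 12.4 RPKM, values that overlap those of BMPR1A. BMPR2, which binds BMPs, stood at 4.54 and 4.72, and the activin receptors ACVR2B and ACVR2A at 3.34 and 3.63 and at 2.50 and 2.39. TGFBR2 was thus the highest of these 4 type II receptors in both libraries. The type III co-receptor TGFBR3 (betaglycan), which presents TGF-beta 2 and inhibin, stood at 3.25 and 3.18 RPKM. ENG (endoglin), the co-receptor found mainly on endothelium, was under 0.5 RPKM like ACVRL1. Of the 7 endothelial markers with a value, 5 were also under 0.5 RPKM, while ESAM stood at 5.75 and KDR at 1.61.

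Ligand genes were detected in 10 of 23 cases (43.5%), beside 59.8% of protein-coding genes. BMP2 was the highest ligand at 28.8 RPKM in both libraries (ENSG00000125845.6, chromosome 20, 6748333 to 6760893, GRCh37). BMP7 stood at 11.1 and 10.7 RPKM and BMP6, the ligand that controls iron through hepcidin in the adult liver, at 3.87 and 3.71. The gene of BMP4, the factor added to the medium, stood at 1.54 and 1.49 RPKM. The RPKM of BMP2 was 18.96 times that of BMP4, and that of BMP4 was 0.14 of BMP7. With 1 RPKM added to each gene these ratios were 11.8 and 0.211. GDF11, a ligand of activin receptors, stood at 11.5 and 10.8 RPKM, values that overlap those of BMP7. GDF15, a stress hormone and distant relative that signals through another kind of receptor, stood at 9.06 and 8.86. Levels of 0.5 to about 1 RPKM were listed for BMP5 (0.88 and 1.04), BMP8B (0.87 and 0.85) and BMP8A (0.71 and 0.64), and the last 2 are near-identical copies that can share reads. BMP3, BMP10 and GDF6 were under 0.5 RPKM in both libraries.

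Among the other ligands, TGFB1 stood at 24.4 RPKM in both libraries and TGFB2 at 4.39 and 4.12, while TGFB3 was under 0.5. The RPKM of TGFB1 was 5.74 times that of TGFB2. The activin chains were low. INHBA, the chain of activin A, stood at 1.13 and 1.12 RPKM and INHA, the inhibin alpha chain, at 1.02 and 1.17, while INHBB, INHBC and INHBE were under 0.5. FST was listed at 14.2 RPKM beside an activin chain INHBA of 1.13. NODAL, the mesendoderm inducer, and its antagonists LEFTY1 and LEFTY2 were under 0.5 RPKM in both libraries.

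**Figure D2:**
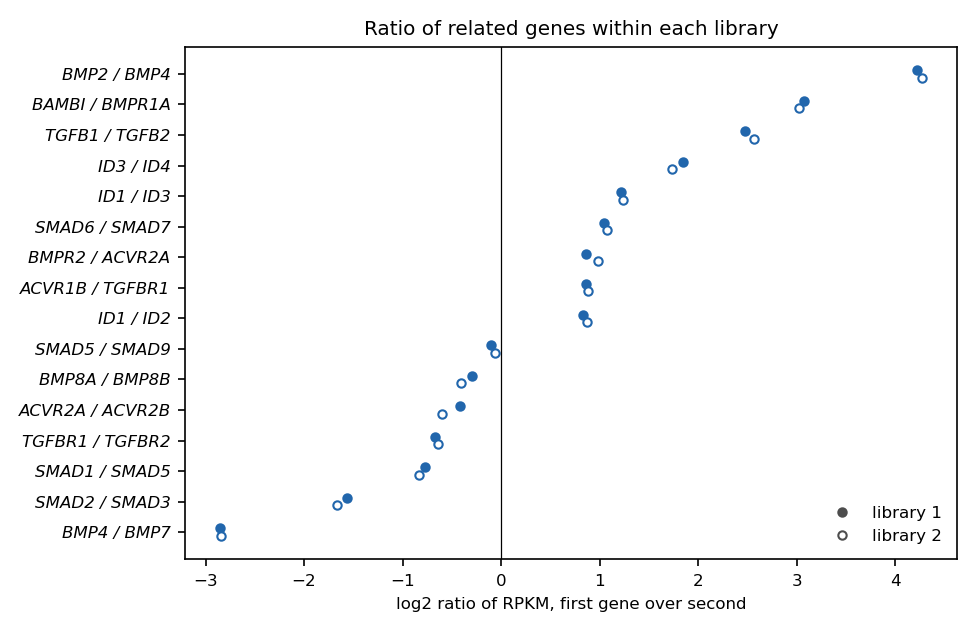
Log2 ratio of RPKM of the first gene over the second in library 1 (filled circles) and library 2 (open circles), for the 16 pairs of related genes with both above 0.5 RPKM. Both libraries lie on the same side of 0 for every pair drawn, from BMP2 over BMP4 at the top to BMP4 over BMP7 at the bottom.

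Several members lie within 1000 kb of each other in the genome, some of them with different levels. ACVR1B and ACVRL1 are 28.3 kb apart on chromosome 12, on the same strand, with 14.5 RPKM against under 0.5. ACVR1 and ACVR1C are 107 kb apart on chromosome 2, with 3.90 RPKM against under 0.5. SMAD6 and SMAD3 are 281 kb apart on chromosome 15, with 30.9 and 10.8 RPKM. SMAD7 and SMAD2 are 989 kb apart on chromosome 18, with 14.8 and 3.53 RPKM. BMP8A and BMP8B are 227 kb apart on chromosome 1, with 0.676 and 0.862 RPKM. INHBC and INHBE, and LEFTY1 and LEFTY2, are neighbours with all 4 genes under 0.5 RPKM. In both SMAD neighbourhoods the inhibitory gene had the higher level.

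The libraries differed little for the members. Over the 35 detected members the larger value was a median of 1.03 times the smaller, beside 1.03 over all detected protein-coding genes. Only NOG and INHA differed by more than 1.1 times (2 of 35), beside 12.3% of detected protein-coding genes. For NOG the values correspond to about 112 reads in library 1 and 140 in library 2 on an exon of 1913 bp. Its ratio of 0.807 had an exact 95% Clopper-Pearson interval of 0.62 to 1.036, which covers counting error only. INHA had a ratio of 0.873 and ACVR2B, the next, of 0.921.

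**Figure D3:**
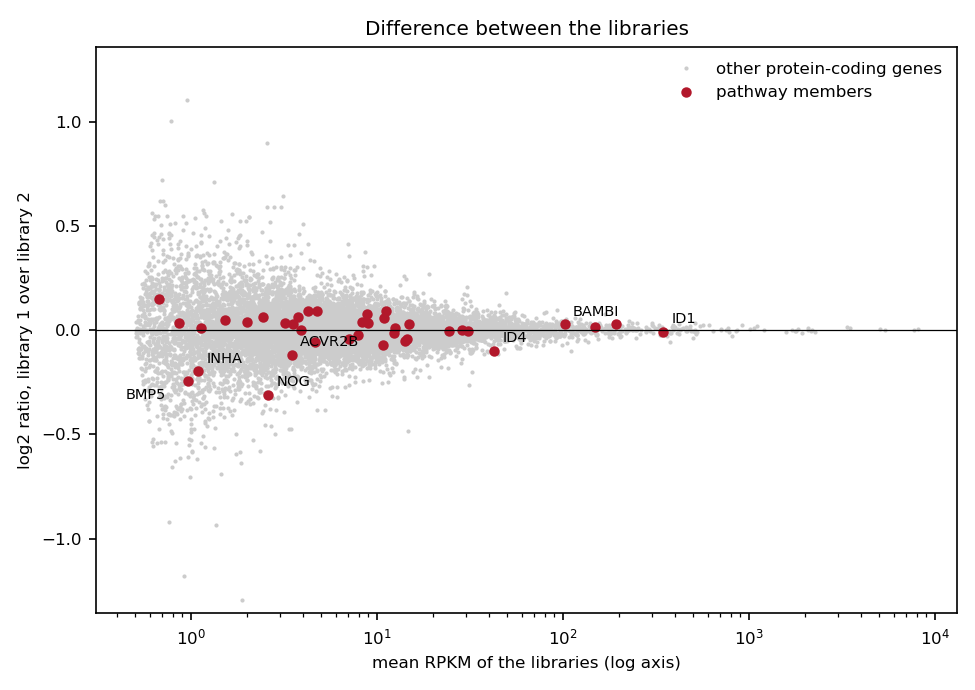
Log2 ratio of library 1 over library 2 (vertical axis) against mean RPKM (horizontal log axis) for protein-coding genes above 0.5 RPKM in both libraries (grey) and for pathway members (red). Detected members lie between ratios of 0.807 for NOG and 1.07, inside the grey spread at their level.

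Other genes of the pathway were taken from 8 further lists of 111 symbols, of which 110 had a value and 71 (64.5%) were detected. SMAD regulators were detected in all 19 cases, beside 59.8% of protein-coding genes. They were led by FKBP1A, which holds type I receptors inactive, at 47.6 RPKM, the ubiquitin ligase STUB1 at 28.2, the corepressor TGIF2 at 26.6 and the corepressor SKI at 14.6, and the lowest was PMEPA1 at 1.49. The processing and storage list was detected in 11 of 16 cases, beside the same 59.8%. FURIN, the protease that cleaves the precursors, stood at 49.1 RPKM, LTBP1, which stores latent TGF-beta, at 14.4, PCSK5, a further such protease, at 9.50 and THBS1, which can activate latent TGF-beta, at 7.68. LTBP2, TLL1 and TLL2 were among those under 0.5 RPKM.

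The co-receptors beyond TGFBR3 and ENG were detected in 4 of 7 cases, again beside 59.8% of protein-coding genes. GPC3, a glypican of fetal liver, stood at 461 RPKM, and NEO1 (neogenin), which binds the RGM co-receptors, at 22.5. RGMB stood at 3.08 and RGMA at 1.39 RPKM, while HJV (hemojuvelin), the co-receptor of iron control, and CFC1 of the nodal pathway were under 0.5. TDGF1, the other nodal co-receptor, was listed at 0.69 and 0.63 RPKM. Further ligands and the receptor AMHR2 were detected in 3 of 9 cases (33.3%), beside the same 59.8%. GDF1, whose transcript is shared with CERS1, stood at 10.4 RPKM, AMHR2, the receptor of the hormone AMH, at 6.28 and GDF3 at 1.92, with AMH at 0.757 and GDF5, GDF7 and MSTN under 0.5. Further secreted modulators were detected in 6 of 14 cases (42.9%), beside the same 59.8%. Among them were FSTL1 at 33.9, TWSG1 at 6.38 and CRIM1 at 4.49 RPKM, while CHRDL2, SOST and DAND5 were under 0.5.

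DNA-binding partners of SMADs were detected in 8 of 13 cases, beside the same 59.8% of protein-coding genes. The endoderm factors GATA4 and GATA6 stood at 43.4 and 42.6 RPKM, and the general factors YY1 and SP1 at 18.2 and 12.6. MIXL1, EOMES and RUNX1 were under 0.5. FOXH1, the partner of SMAD2 and SMAD3 in nodal signalling, named after its value was seen, stood at 11.8 RPKM, while NODAL was under 0.5. BMP targets outside the ID genes were detected in 8 of 16 cases, beside 59.8% of protein-coding genes. They were led by the transcription factors TBX3 at 34.3, GATA3 at 10.3, TBX20 at 10.1 and MSX2 at 5.84 RPKM, while MSX1, HAND1 and HAMP (hepcidin) were under 0.5. The high level of the ID genes was thus not shared by all listed BMP targets. GATA3, HAND1, CDX2 and TFAP2A of this list are also on the trophoblast list.

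TGF-beta and activin targets were detected in 12 of 16 cases, beside 59.8% of protein-coding genes. Among them ANKRD1 stood at 41.7 RPKM, IGFBP3 at 33.4 and CCN2, a matrix growth factor, at 13.9, while CDKN2B, GSC and ITGB6 were under 0.5. COL1A1 and COL1A2 of this list are also on the mesenchymal list. Genes of these lists have other regulators as well, and which signal the levels reflect was not tested.

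**Figure D4:**
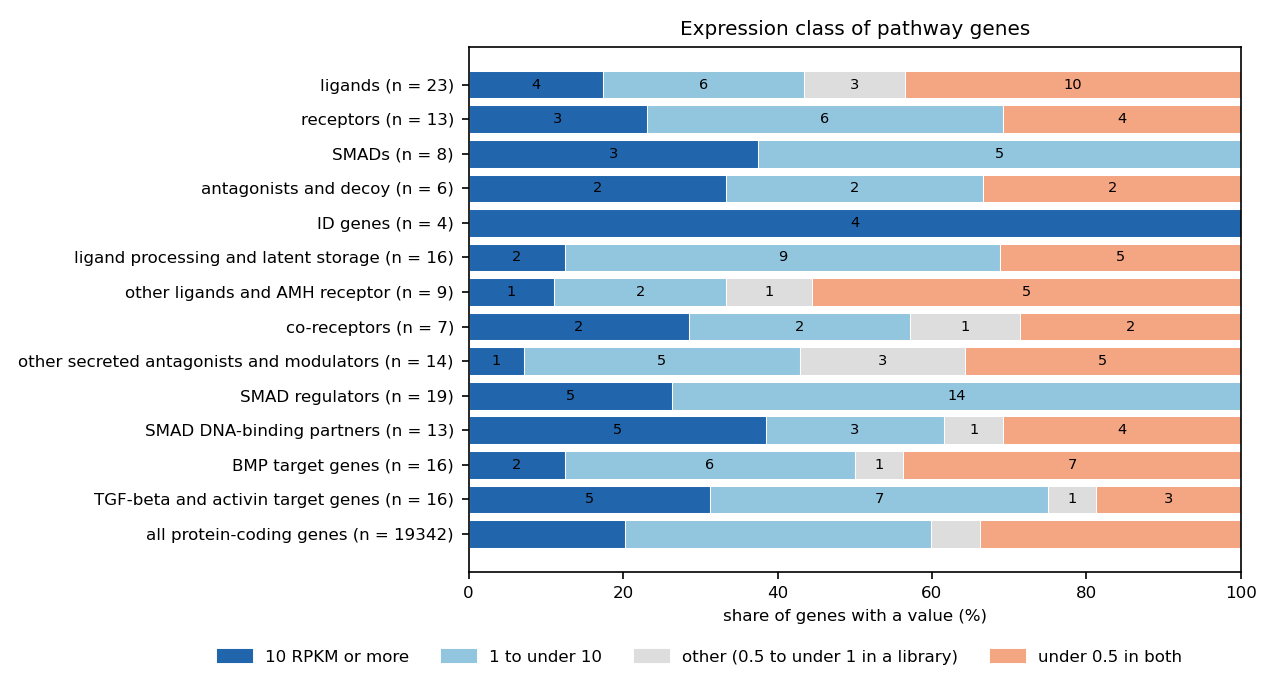
Share of genes with a value (horizontal axis, %) in each expression class for the 5 roles of the members, the 8 further pathway lists and all 19342 protein-coding genes, with the number of genes printed in the bars except for the last. The SMADs (8 of 8), the ID genes (4 of 4) and the SMAD regulators (19 of 19) have no gene under 1 RPKM.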

How the data were processed

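Expression was measured by strand-specific RNA sequencing of poly(A) RNA from 2 libraries of day 8 liver progenitors, made from 2 µg of total RNA per the labels' protocols. The authors deposited 1 RPKM value per gene and library for 57158 versioned Ensembl identifiers. The design text names hg19 and Sailfish, and FastQC (0.10.1), the aligner STAR (2.3.0e) and also Cufflinks (2.2.0) are listed, with no role, in the submitters' processing notes. The tool behind the RPKM values, and their annotation release, is not given in the sources used here. In the deposited RPKM values no number lay between 0.1 and 0.5 in either library, and 39548 and 39542 genes held 0.1.

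Identifiers were joined without version to GENCODE release 44 on GRCh37 (54428 matched, 95.2%), and the identifier of highest mean was kept per symbol. HJV and CCN2 were matched through a RefSeq synonym. GDF10, GDF2 and PECAM1 were not matched. Depth was read from the step of single-exon genes, using exon length minus 1 base. The share of values below 500 reads that lay within 0.02 of a whole read was 80.6% (library 1) and 80.8% (library 2). Genes with several exons gave no such check, so no counts were rebuilt and no count test was run. The depth and spread estimates were also run on simulated reads of genes within 0.02 of a whole read in both libraries. That run could not show whether the other genes bias the estimates, because it left them out. With 1 group there is no test between groups. The members and lists were chosen with earlier results of these data known. All members are accounted for. Of each further list the 4 highest genes and up to 3 under 0.5 RPKM are named, with pairs, the 3 members that differ most between libraries and pseudogenes at 1 RPKM or more. Some genes that this rule names are not reported here, while the counts of their lists include them. Motifs were searched with Python 3.11.15. Alternatives were the detection limit (0.5 and 5 RPKM), each library alone, the pseudocount (1 or 0.1), summed identifiers and the background.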

Additional observations from a re-analysis of the deposited data

How the results depend on the processing

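No paired analysis was possible because the libraries form 1 group and are counted as 1 sample. With either library alone, members detected ran from 35 to 36, members at 10 RPKM or more stayed at 16, the median level of members ran from 2.15 to 2.19 on the log2(RPKM + 1) scale, and no count by role or list moved by more than 1.5 times. A limit of 0.5 RPKM gave 38 members detected and a limit of 5 RPKM gave 21. At 5 RPKM the inhibin and activin chains and the type III co-receptors were detected in 0 cases each, TGF-beta ligands, type II receptors and secreted antagonists in 1 each, and receptor-regulated SMADs in 3. At the same limit 12 SMAD regulators, 7 TGF-beta and activin targets, 5 BMP targets, 2 co-receptors and 2 further modulators were detected. Summing all identifiers of a symbol left 35 members detected. The median level was 1.85 with a pseudocount of 0.1, and 3.30 over detected members only. Taking every deposited identifier as background gave 26.3% detected in place of 59.8%. With 1 RPKM added to both genes, no ratio crossed 1, and 12 of 16 moved by more than the spread between libraries. The ratio then became 1.64 for BMPR2 over ACVR2A, 0.768 for ACVR2A over ACVR2B, 1.74 for ACVR1B over TGFBR1 and 0.663 for TGFBR1 over TGFBR2. It became 0.619 for SMAD1 over SMAD5, 0.383 for SMAD2 over SMAD3 and 2.02 for SMAD6 over SMAD7. For ligands it became 11.8 for BMP2 over BMP4, 0.211 for BMP4 over BMP7, 4.83 for TGFB1 over TGFB2 and 0.90 for BMP8A over BMP8B. For BAMBI over BMPR1A, whose level is uncertain, the ratio became 7.72. A gene under 0.5 RPKM may still be transcribed, since that limit is about 25.2 reads of library 1 for a length of 2000 bp.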
